A study of Mus musculus with 6 samples.

Results

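The genes described here serve protein folding and stress sensing in the endoplasmic reticulum (ER). Their membership came from a list of 44 gene symbols, which named no measured value. Of these, 42 had a probe set annotated with that single symbol, among 18193 genes measured in this way. Fkbp10 and Sec61g, which had no such probe set, are not analysed here. The oxidases listed as Ero1l and Ero1lb carry their current names Ero1a and Ero1b. RNA from the ventricles of mice carrying caAkt, an activated form of the kinase Akt expressed constitutively in the heart, was compared with RNA from wild-type mice. All animals were 8 weeks old, and each genotype had 3 arrays, 1 for each sample. The labels name neither the promoter of the transgene nor the number of founder lines, and the study's design text concerns the development of heart failure in these mice. Whole ventricular tissue was used, so myocytes, fibroblasts, vessels and blood cells contributed to every value.

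The ER folds proteins that are secreted, placed in membranes or delivered to the Golgi. Its lumen holds Hsp70 and Hsp90 chaperones, lectin chaperones for glycoproteins, and isomerases that form disulfide bonds. When unfolded protein accumulates, the membrane sensors ATF6, IRE1 (Ern1) and PERK (Eif2ak3) start the unfolded protein response. ATF6 is released by cleavage, IRE1 splices the Xbp1 messenger RNA, and PERK slows translation. ATF6 and spliced XBP1 act on promoter elements of chaperone and degradation genes, of which Hspa5, encoding BiP, is the usual marker. In the heart the same membrane system, as sarcoplasmic reticulum, also stores the calcium for contraction. An array reads the amount of messenger RNA and shows neither sensor cleavage, Xbp1 splicing nor protein.

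The values were log2 intensities as deposited, with array medians from 6.77 to 6.80. Across all probe sets other than controls, arrays of the same genotype correlated at 0.995 to 0.997, and arrays of different genotypes at 0.983 to 0.985. Probe sets are not independent replicates in such a correlation. Akt1 read 15.16, 15.10 and 15.08 in caAkt hearts, against 9.79, 9.79 and 10.18 in wild-type hearts. The caAkt readings lay near the highest value on the arrays, 15.45, so the difference of 5.19 ± 0.11 (SE) may be compressed. Differences are given as caAkt minus wild-type on the log2 scale, with a standard error from the limma fit over all genes. A gene was called at a Benjamini-Hochberg adjusted p under 0.05 over all 18193 genes. The labels do not say that the samples came from separate animals, so the p-values measure only the spread between these samples.

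Most ER genes that were called were higher in caAkt hearts, and Hspa5, the usual stress marker, was not called. Of the 42 measured, 22 were higher in caAkt hearts (52.4%), 1 was lower (2.38%) and 19 were not called. Over all genes 16.1% were called higher and 12.4% lower. Among genes whose mean was at or above the median log2 value of 7.72, which held 38 of the members, 24.7% were called higher, against 20 of those 38 members. The members' median difference was 0.28, against -0.04 over all genes, and 34 were above 0 and 8 below. The 3 caAkt arrays did not overlap the 3 wild-type arrays for 28 members (66.7%), 27 of them higher and 1 lower, while 42.4% of all genes were separated in this way. The split depended on the setting. After a renewed quantile normalization of the deposited values 20 members were higher and 4 were lower, those 4 being Herpud1, Dnajb9, Canx and Derl1. The same 4 were lower with array weights and without wild-type replicate 3. Median centring gave 23 higher and 1 lower. Changes were moderate in size, from a fall of 0.70 for Herpud1 to an increase of 1.08 for Casp12.

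**Figure D1:**
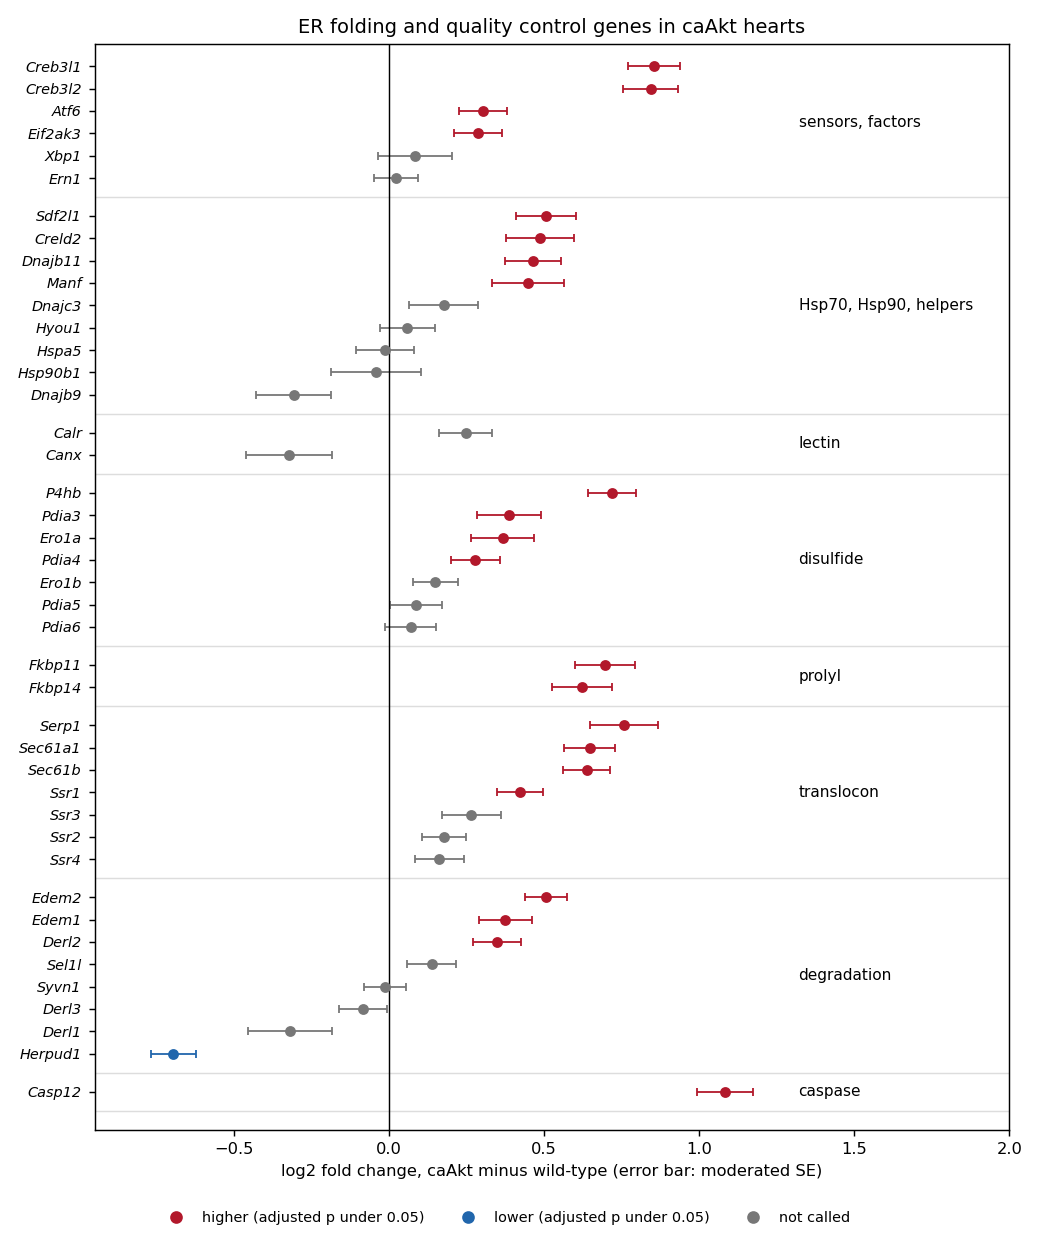
Difference in log2 intensity, caAkt minus wild-type, for the 42 ER genes ordered by role, with bars of 1 SE and the calls at adjusted p under 0.05 in colour. Serp1, P4hb, Fkbp11, Creb3l1, Creb3l2 and Casp12 stand at or above 0.70, Hspa5 stands at -0.01, and Herpud1 is the single member called lower, at -0.70.

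Markers of other cell types moved between the same groups. Of 10 fibroblast markers 8 were higher in caAkt hearts, with a median difference of 0.82, and Tcf21 (0.07) and Thy1 (0.14) were not called. Their summed level, as log2 of the sum of linear intensities, was 16.32 to 16.47 in caAkt hearts, against 14.88 to 15.19 in wild-type hearts. All 10 macrophage markers were higher, with a median difference of 1.46 and summed levels of 14.83 to 15.12 in caAkt hearts, against 13.28 to 13.53 in wild-type hearts. For both cell types every caAkt sum lay above every wild-type sum. Of 6 markers of plasma and B cells, which secrete heavily, Sdc1 (1.02) and Jchain (0.36) rose and Mzb1 fell by 0.35. Cd79a, Cd79b and Ms4a1 were not called. The summed level of those 6 was 9.31 to 9.52 in caAkt hearts, against 8.92 to 9.03 in wild-type hearts. Sdc1 was the brightest of the 6, with means of 8.41 in caAkt and 7.39 in wild-type hearts, and weighed most in that sum. None of 5 T cell markers was called, with summed levels of 9.53 to 9.62 in caAkt hearts and 9.60 to 9.74 in wild-type hearts. Cardiomyocyte markers were lower for 3 of 9 (Myl3, Tnni3 and Ryr2), with summed levels of 17.77 to 17.82 in caAkt hearts, against 17.86 to 17.98 in wild-type hearts. Endothelial markers were lower for 3 of 7, with summed levels of 12.70 to 12.86 in caAkt hearts, against 13.03 to 13.06 in wild-type hearts. Of 4 smooth muscle markers only Tagln rose, and summed levels were 12.53 to 13.39 in caAkt hearts, against 12.87 to 13.05 in wild-type hearts. A background-corrected array has no reading of 0, so no marker could be called absent. The part of these cell types in the ER results was not tested. In such tissue more cells of a type and more messenger RNA per cell cannot be told apart.

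Among the stress sensors and transcription factors, 4 of 6 rose and none fell, with a median difference of 0.29. The most responsive were Creb3l1 and Creb3l2, relatives of ATF6 that are likewise held in the ER membrane and freed by cleavage, and that are known for the output of collagen in bone and cartilage. Creb3l1 read 8.92, 9.10 and 9.12 in caAkt hearts, against 8.27, 8.22 and 8.08 in wild-type hearts. Creb3l2 read 9.29, 9.51 and 9.53 in caAkt hearts, against 8.51, 8.69 and 8.60 in wild-type hearts. In both genes every caAkt array lay above every wild-type array. The differences were 0.85 ± 0.08 (SE, adjusted p = 8.12e-05) for Creb3l1 and 0.84 ± 0.09 (SE, adjusted p = 0.000122) for Creb3l2, or 1.81-fold and 1.79-fold.

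The ATF6 and PERK sensors rose less. Atf6 read 10.37, 10.37 and 10.22 in caAkt hearts, against 10.01, 10.10 and 9.94 in wild-type hearts. For Eif2ak3, which encodes PERK, the readings were 7.62, 7.78 and 7.73 in caAkt hearts, against 7.36, 7.52 and 7.39 in wild-type hearts. Neither gene's groups overlapped, and the differences were 0.30 ± 0.08 (SE, adjusted p = 0.0164) for Atf6 and 0.29 ± 0.08 (SE, adjusted p = 0.0208) for Eif2ak3. The other probe sets of Atf6 gave 0.41, which was called, and 0.13, which was not. Atf6 was no longer called without caAkt replicate 1 or 2 (adjusted p = 0.0587 and 0.0609). Eif2ak3 was no longer called without caAkt replicate 2 (0.076 for the adjusted p) or 3 (0.0629), nor without wild-type replicate 1 (0.0672) or 3 (0.0554). As a mean over its probe sets the Eif2ak3 difference was 0.12 (adjusted p = 0.21).

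Neither member of the IRE1 branch, Ern1 or Xbp1, was called. Ern1, the kinase and nuclease that splices Xbp1, read 8.97, 9.02 and 8.89 in caAkt hearts, against 8.89, 9.01 and 8.92 in wild-type hearts. Its difference was 0.02 ± 0.07 (SE, adjusted p = 0.851), and the groups overlapped. Xbp1 itself read 11.61, 11.50 and 11.63 in caAkt hearts, against 11.78, 11.45 and 11.26 in wild-type hearts. All 3 caAkt arrays lay inside the wild-type range, and the difference was 0.08 ± 0.12 (SE, adjusted p = 0.645).

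The Hsp70 and Hsp90 chaperones and their helpers divided: 4 of 9 rose, none fell, and the median difference was 0.18. Hspa5 (BiP), the Hsp70 of the ER, read 12.83, 12.90 and 12.88 in caAkt hearts, against 13.06, 12.89 and 12.70 in wild-type hearts. The caAkt readings sat within the wild-type range, and the difference was -0.01 ± 0.09 (SE, adjusted p = 0.938). Hspa5 was not called at its dimmer probe sets either, which gave -0.11 and -0.26. Its partners were also not called: Hyou1, a large Hsp70 relative that exchanges BiP's nucleotide, differed by 0.06 ± 0.09, and Hsp90b1 (GRP94), the Hsp90 of the ER, by -0.04 ± 0.15 (adjusted p = 0.665 and 0.858). The helpers that rose were a different set. Sdf2l1, a partner of the BiP co-chaperone Dnajb11, read 8.39, 8.44 and 8.48 in caAkt hearts, against 8.07, 7.72 and 8.00 in wild-type hearts, without overlap. Its difference was 0.51 ± 0.10 (SE, adjusted p = 0.00389). Dnajb11 itself differed by 0.46 ± 0.09 (SE, adjusted p = 0.00441), and Creld2, a stress-inducible protein of the lumen, by 0.48 ± 0.11 (SE, adjusted p = 0.00949). Manf, a secreted factor that also binds BiP, differed by 0.45 ± 0.12 (SE, adjusted p = 0.0183). Its call was lost without caAkt replicate 1 or 3, or wild-type replicate 2 or 3, where the adjusted p was 0.0528, 0.0753, 0.073 and 0.061.

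The other J-domain helpers of BiP were not called. Dnajb9 differed by -0.31 ± 0.12 (adjusted p = 0.0924) and Dnajc3 by 0.18 ± 0.11 (adjusted p = 0.28). Dnajc3 was higher without wild-type replicate 1 (0.30, adjusted p = 0.0338), and 2 of its dimmer probe sets, at 0.32 and 0.50, were called higher with adjustment over all probe sets. Without wild-type replicate 3, Dnajb9 was lower (-0.45, adjusted p = 0.00906), as were the lectin chaperone Canx (-0.49, adjusted p = 0.00683) and the degradation factor Derl1 (-0.48, adjusted p = 0.00891).

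The lectin chaperones, which hold glycoproteins by their sugars and bind calcium, were not called with all 6 arrays. Calr differed by 0.25 ± 0.09 (adjusted p = 0.0585) and Canx by -0.32 ± 0.14 (adjusted p = 0.117). Calr lay close to the threshold and passed it in 5 of the alternative fits.

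Of the disulfide isomerases and oxidases, 4 of 7 rose and none fell, with a median difference of 0.28. P4hb (PDI) led them. It forms and rearranges disulfide bonds and is also the beta subunit of the prolyl 4-hydroxylase that modifies collagen. P4hb read 12.47, 12.50 and 12.68 in caAkt hearts, against 11.84, 11.88 and 11.78 in wild-type hearts. No caAkt array overlapped the wild-type arrays, and the difference was 0.72 ± 0.08 (SE, adjusted p = 0.000149), or 1.65-fold. Pdia3 (ERp57), which works with the lectin chaperones, differed by 0.39 ± 0.10 (SE, adjusted p = 0.0205) and Pdia4 (ERp72) by 0.28 ± 0.08 (SE, adjusted p = 0.0279). Ero1a, which reoxidises the isomerases, differed by 0.37 ± 0.10 (SE, adjusted p = 0.0246). Its other probe sets gave 0.90, which was called, and 0.27, which was not, and the other probe set of Pdia3 gave 0.19 and was not called. These 3 calls were each lost on leaving out certain single arrays. For Pdia3 these were caAkt replicate 1 or 3 and wild-type replicate 2 or 3, with adjusted p = 0.0754, 0.0803, 0.0828 and 0.0609. Ero1a was lost without the same arrays, at 0.0566, 0.0798, 0.073 and 0.0779. Pdia4 was lost without caAkt replicate 1 or 3 or wild-type replicate 1 or 2, at 0.0857, 0.0921, 0.0652 and 0.11. As a mean over its probe sets Pdia4 differed by 0.0062. Renewed quantile normalization also ended the calls of Pdia4 and Ero1a, with adjusted p = 0.1 and 0.0532. Pdia5, Pdia6 and the second oxidase Ero1b were not called, at 0.09, 0.07 and 0.15.

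Both measured prolyl isomerases rose. Fkbp14, an isomerase that acts on collagen, read 8.90, 8.90 and 9.17 in caAkt hearts, against 8.48, 8.37 and 8.25 in wild-type hearts. The groups were apart, with a difference of 0.62 ± 0.10 (SE, adjusted p = 0.00123), and its dim second probe set gave -0.26 and was not called. Fkbp11 read 7.70, 7.64 and 7.77 in caAkt hearts, against 6.98, 7.20 and 6.84 in wild-type hearts. Its difference was 0.70 ± 0.10 (SE, adjusted p = 0.000648), again without overlap. The Fkbp11 result rested on its brightest probe set. The other 2 gave -0.34 and -0.24 and were not called, and the mean over all 3 gave 0.04 (adjusted p = 0.756).

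**Figure D2:**
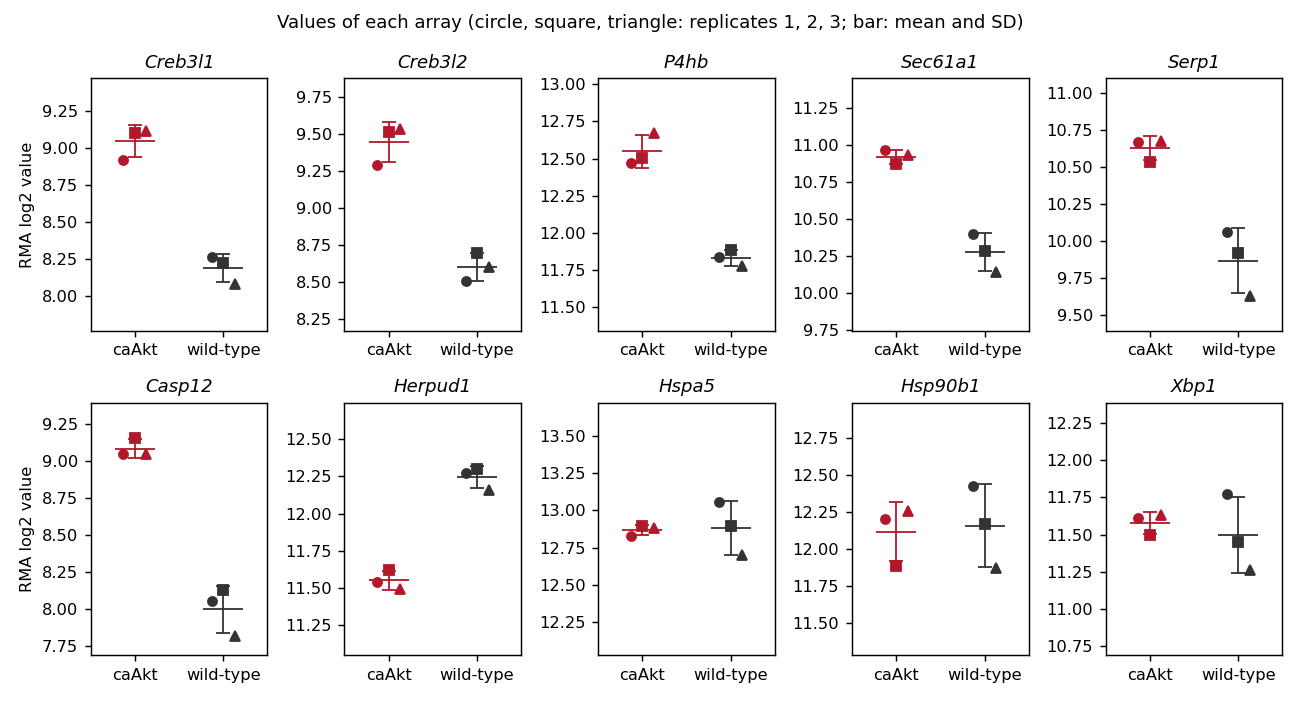
Log2 intensity on each array of named ER genes, with the 3 caAkt arrays left of the 3 wild-type arrays and a line at each group mean and bars of 1 SD. Creb3l1, Creb3l2, P4hb and Casp12 show caAkt readings above every wild-type reading, Herpud1 shows them below, and those of Hspa5 lie between the wild-type readings.

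The translocon, through which new proteins enter the ER, rose at 4 of 7 measured members and fell at none, with a median difference of 0.42. Sec61a1, the pore, read 10.97, 10.87 and 10.93 in caAkt hearts, against 10.40, 10.29 and 10.14 in wild-type hearts. Sec61b, its small partner, read 10.66, 10.60 and 10.72 in caAkt hearts, against 10.13, 9.98 and 9.95 in wild-type hearts. Serp1 (RAMP4), which associates with the pore, read 10.67, 10.53 and 10.68 in caAkt hearts, against 10.06, 9.92 and 9.63 in wild-type hearts. All 3 genes had caAkt readings above every wild-type reading. Their differences were 0.65 ± 0.08 (SE, adjusted p = 0.000363) for Sec61a1, 0.64 ± 0.08 (SE, adjusted p = 0.000261) for Sec61b and 0.76 ± 0.11 (SE, adjusted p = 0.000805) for Serp1. Of the 6 probe sets for Sec61a1, 5 were called higher, at 0.58 to 0.67. The signal sequence receptor, a complex beside the pore, was less uniform. Ssr1 rose by 0.42 ± 0.07 (SE, adjusted p = 0.00239). Ssr2, Ssr3 and Ssr4 differed by 0.18, 0.26 and 0.16 and were not called. Ssr3 was called higher without wild-type replicate 1 (0.34, adjusted p = 0.0375).

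ER-associated degradation returns misfolded proteins to the cytosol for the proteasome. Of its 8 members 3 rose and 1 fell, and the median difference was 0.06. Over all genes 16.1% were higher and 12.4% lower, so 1 lower of 8 lies near that share. Herpud1, a membrane scaffold of the degradation complex, read 11.54, 11.62 and 11.49 in caAkt hearts, against 12.27, 12.30 and 12.16 in wild-type hearts. Every caAkt array lay below every wild-type array. The difference was -0.70 ± 0.07 (SE, adjusted p = 0.00012), which is 1.62-fold lower, and its second probe set gave -0.77. The members that rose include mannose-trimming factors, which mark glycoproteins for removal. Edem2 read 9.09, 9.21 and 9.13 in caAkt hearts, against 8.58, 8.66 and 8.68 in wild-type hearts, without overlap, for a difference of 0.51 ± 0.07 (SE, adjusted p = 0.000589). Edem1 differed by 0.37 ± 0.09 (SE, adjusted p = 0.00958) and Derl2, a membrane protein of the export channel, by 0.35 ± 0.08 (SE, adjusted p = 0.00838). The second probe set of Edem1 gave a larger difference, 1.14, and was called, while the dim second probe set of Edem2 gave -0.01 and was not. As a mean over its probe sets Derl2 differed by 0.08 (adjusted p = 0.46). The ubiquitin ligase Syvn1 (HRD1) and its partner Sel1l were not called, at -0.01 and 0.14, and nor were Derl1 and Derl3, at -0.32 and -0.09. For each of Sel1l (0.63 and 0.77) and Derl1 (0.27 and 0.49), 2 dimmer probe sets were called higher, so the result for these genes depended on the probe set used.

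Casp12, a rodent caspase bound to the ER, had the largest difference of the 42. It read 9.04, 9.16 and 9.05 in caAkt hearts, against 8.05, 8.12 and 7.82 in wild-type hearts. The groups were well apart, and the difference was 1.08 ± 0.09 (SE, adjusted p = 3.34e-05), or 2.12-fold. Its other probe set gave 1.14. The macrophage and fibroblast marker levels given above were higher in the same caAkt hearts, and their part in this value was not tested.

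The promoters of these genes were searched for the ER stress response element, on which ATF6 and XBP1 are known to act. Windows from 250 bases before to 50 after the annotated start, from RefSeq on build GRCm38.p6, were used for 35 of the 42 members. The windows of Atf6, Creb3l1, Hyou1, Manf, Sec61a1, Ssr2 and Derl1 were not used here. The element (ERSE) was searched as CCAAT, any 9 bases and CCACG, and its second form (ERSE-II) as ATTGG, any 1 base and CCACG, on both strands. A gene with several windows was counted once. An exact match stood in 12 of the 35 members (34.3%), against 29 of 14452 genes on the array with a window (0.201%), which include these 12. Chaperone and degradation genes are known targets of ATF6 and XBP1, so the higher share among members is no independent finding. The matches follow, read along the gene's own strand with the fixed bases in capitals and up to 10 neighbouring bases on each side. A match on the opposite strand appears reversed, as CGTGG before ATTGG. The Dnajb11 match lies 8 to 18 bases after the start, and all others lie before it.
Hspa5 ERSE (chr2:34772015-34772053, plus strand): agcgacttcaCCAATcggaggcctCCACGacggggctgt
Hsp90b1 ERSE (chr10:86705628-86705666, minus strand): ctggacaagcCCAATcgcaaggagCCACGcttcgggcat
Hsp90b1 ERSE (chr10:86705523-86705561, minus strand): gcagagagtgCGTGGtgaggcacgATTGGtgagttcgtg
Dnajc3 ERSE (chr14:118937817-118937855, plus strand): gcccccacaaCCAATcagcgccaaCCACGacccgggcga
Creld2 ERSE (chr15:88819510-88819548, plus strand): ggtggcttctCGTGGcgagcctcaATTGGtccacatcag
Calr ERSE (chr8:84847065-84847103, minus strand): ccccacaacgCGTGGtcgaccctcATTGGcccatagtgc
Canx ERSE (chr11:50325790-50325828, minus strand): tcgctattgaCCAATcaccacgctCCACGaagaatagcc
Pdia6 ERSE (chr12:17266481-17266519, plus strand): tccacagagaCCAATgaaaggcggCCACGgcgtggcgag
Ero1b ERSE (chr13:12565672-12565710, plus strand): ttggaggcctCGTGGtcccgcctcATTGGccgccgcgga
Syvn1 ERSE (chr19:6046522-6046560, plus strand): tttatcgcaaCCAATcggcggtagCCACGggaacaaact
Derl3 ERSE (chr10:75893232-75893270, plus strand): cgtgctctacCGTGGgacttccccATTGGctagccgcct
Herpud1 ERSE-II (chr8:94386367-94386397, plus strand): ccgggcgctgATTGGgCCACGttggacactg
Dnajb11 ERSE-II (chr16:22857844-22857870, plus strand): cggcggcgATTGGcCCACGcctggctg

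Of the 12 members with such an element, Creld2 and Dnajb11 were higher, Herpud1 was lower and 9 were not called, with a median difference of 0.03. With 16.1% of all genes higher and 12.4% lower, these 12 were called about as often as genes at large, and the count is not a result about them. Of the 23 members whose windows held no match, 16 were higher, none was lower and 7 were not called, with a median of 0.37. Next, 1 mismatch was allowed among the 10 fixed bases of the ERSE, while the ERSE-II was still matched exactly. The count became 16 of 35 members (45.7%), against 2.07% of genes on the array with a window. Then 5 of 16 with a match and 13 of 19 without were higher, with medians of 0.14 and 0.42. The difference between the classes is a description of this list and was not tested. A match is not evidence of binding, and no match says only that these letters are not in this window.

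The gene lowest and the gene usually read as the stress marker both carry the element close to their start. The 250 bases before each start are printed to show where it lies, with matched bases in capitals. In Hspa5 the ERSE spans 65 to 47 bases before the start, and a core of the unfolded protein response element (TGACGTG) spans 157 to 151. That core stood in 2 of the 35 members (5.71%), Hspa5 and Fkbp11, against 2.84% of genes on the array with a window. In Herpud1 the ERSE-II spans 52 to 42 bases before the start.
Hspa5 upstream (chr2:34771840-34772089, plus strand): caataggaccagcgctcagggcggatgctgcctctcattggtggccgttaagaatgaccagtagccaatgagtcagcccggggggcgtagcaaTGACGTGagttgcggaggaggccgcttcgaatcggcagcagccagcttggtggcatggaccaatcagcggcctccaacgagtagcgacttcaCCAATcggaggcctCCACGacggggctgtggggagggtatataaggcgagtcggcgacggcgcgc
Herpud1 upstream (chr8:94386179-94386428, plus strand): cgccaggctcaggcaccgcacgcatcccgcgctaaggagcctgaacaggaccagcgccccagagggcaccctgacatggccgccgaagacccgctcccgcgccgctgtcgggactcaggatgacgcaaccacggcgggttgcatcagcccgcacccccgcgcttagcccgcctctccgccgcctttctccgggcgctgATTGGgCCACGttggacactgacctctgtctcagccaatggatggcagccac

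**Figure D3:**
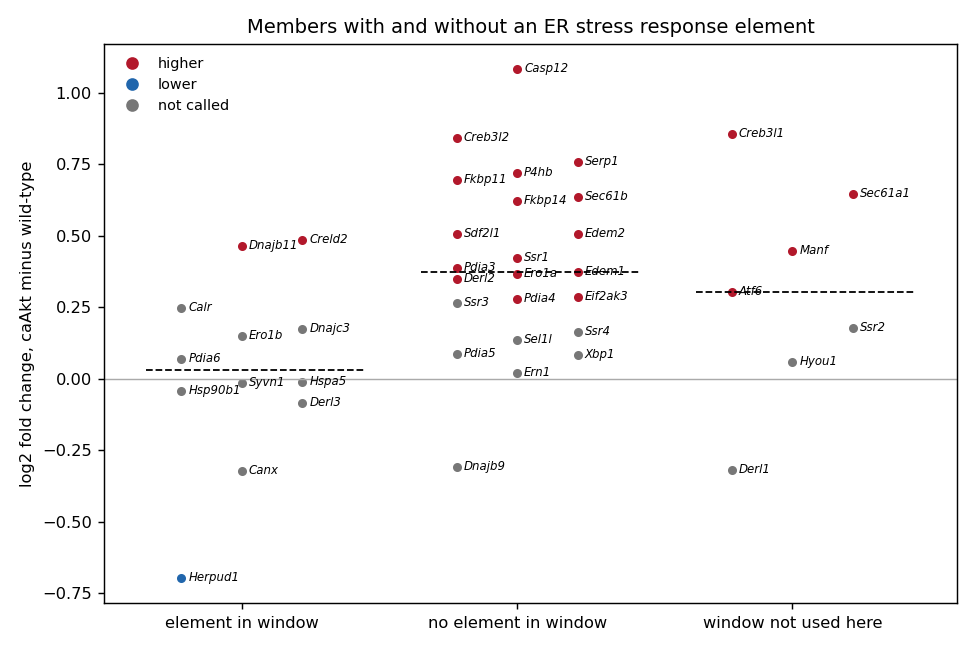
Difference in log2 intensity, caAkt minus wild-type, for 12 ER genes with an exact ERSE or ERSE-II in the promoter window, 23 without and 7 whose window was not used, with a dashed line at each median. Most genes with the element lie near 0 (median 0.03), Herpud1 lies at -0.70, and the genes without it centre at 0.37.

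The wild-type arrays were not uniform in these genes. Wild-type replicate 1 was the highest of the 3 wild-type arrays in 29 of 42 members and replicate 3 the lowest in 28. Both held in 21 of the 42 members, against 26.3% of all genes. Hsp90b1 shows it, with 12.20, 11.89 and 12.26 in caAkt hearts, against 12.43, 12.17 and 11.87 in wild-type hearts. The same order held in 7 of the 12 members with an element and in 10 of the 23 without. Wild-type replicate 1 was the highest in 11 of those 12 and in 12 of those 23, against 7107 of all 18193 genes. Its part in the difference between the classes was not tested. The median SD among wild-type arrays was 0.13 in both classes.

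**Figure D4:**
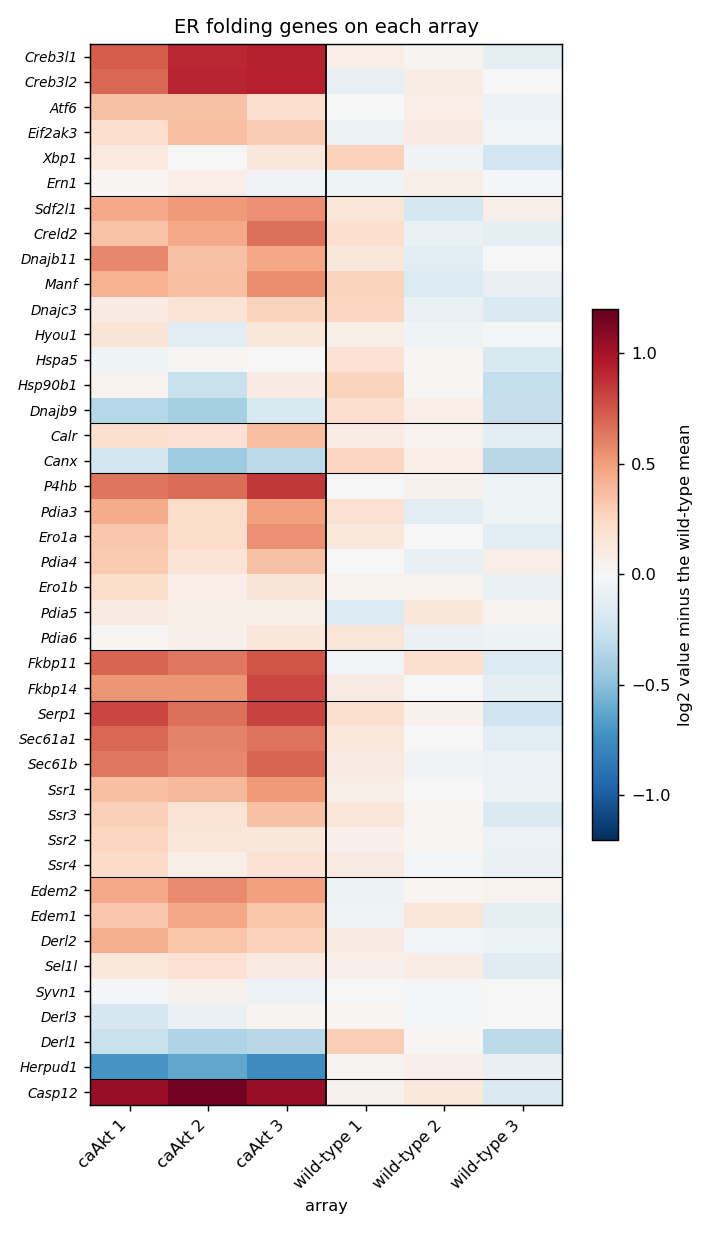
Log2 intensity of each of the 42 ER genes on each array, relative to the wild-type mean of that gene, with caAkt arrays left of wild-type arrays and genes ordered by role. Casp12, Creb3l1, Creb3l2, Serp1 and P4hb are high on all 3 caAkt arrays and Herpud1 is low on all 3, while wild-type replicate 1 is the highest wild-type array in 29 genes.

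Other genes of the same pathways were taken from lists. Over all genes 16.1% were called higher and 12.4% lower, with a median of -0.04. Of 20 other ER folding enzymes 9 rose and none fell, with a median of 0.16. They were led by the disulfide isomerase relative Txndc5 (0.73 ± 0.07), the prolyl isomerase Ppib (0.61 ± 0.07) and Fkbp7 (0.48 ± 0.11). The list for translocation and N-glycosylation had 10 of 23 measured genes higher and 1 lower, with a median of 0.14. The signal peptidase subunit Spcs3 differed by 0.84 ± 0.10, the oligosaccharyltransferase Stt3a by 0.60 ± 0.11 and Tram1, beside the pore, by 0.54 ± 0.09. The pore paralog Sec61a2 fell, at -0.31 ± 0.07, opposite to Sec61a1. Other degradation genes were higher for 8 of 17 and lower for 1, with a median of 0.23. Here Ubxn4 (0.83 ± 0.08) and Nploc4 (0.51 ± 0.07), which bind the VCP segregase, rose, and the ligase Rnf139 fell (-0.42 ± 0.08).

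Of 10 genes of the PERK branch and its factor ATF4, 6 rose, none fell, and the median was 0.44. Over all genes 16.1% were called higher and 12.4% lower. Nupr1, a stress-inducible chromatin protein, read 9.87, 9.93 and 9.93 in caAkt hearts, against 7.93, 8.19 and 7.96 in wild-type hearts. Asns, the asparagine synthetase, read 9.66, 9.09 and 9.31 in caAkt hearts, against 7.80, 7.79 and 7.67 in wild-type hearts. Chac1, which degrades glutathione, read 8.92, 8.88 and 9.05 in caAkt hearts, against 8.24, 8.34 and 8.29 in wild-type hearts. All 3 were free of overlap, with differences of 1.89 ± 0.08 (SE, adjusted p = 1.18e-06) for Nupr1, 1.60 ± 0.13 (SE, adjusted p = 2.98e-05) for Asns and 0.66 ± 0.07 (SE, adjusted p = 0.000187) for Chac1. Also called higher were Atf4 itself (0.48 ± 0.07, adjusted p = 0.000852), Ddit3 (0.41 ± 0.08, adjusted p = 0.00435) and Ppp1r15a (0.39 ± 0.09, adjusted p = 0.0107). Ppp1r15b, Trib3, Atf3 and Sesn2 were not called. ATF4 also answers kinases other than PERK, so the list is not specific to the ER. Of 11 genes for ATF6 processing and related factors, 5 rose and 1 fell, with a median of 0.24. Creb3 (0.55 ± 0.07) and Atf6b (0.41 ± 0.08), membrane-held relatives of ATF6, rose. Among subunits of the factor that binds CCAAT, Nfyb rose (0.35 ± 0.10), Nfyc fell (-0.23 ± 0.07) and Nfya was not called (0.17). The adaptor of IRE1, Traf2, was higher by 0.37 ± 0.09.

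Of 11 genes that fold and modify collagen, 10 rose and none fell, with a median of 0.60. The prolyl 3-hydroxylase P3h2 differed by 2.09 ± 0.10, the lysyl hydroxylase Plod2 by 1.22 ± 0.07 and P4ha1, the catalytic partner of P4hb in prolyl 4-hydroxylase, by 1.16 ± 0.09. P4ha1 read 11.38, 11.06 and 11.21 in caAkt hearts, against 10.11, 9.97 and 10.07 in wild-type hearts, apart in every array as P4hb was. The fibroblast marker Col1a1 read 13.17, 13.05 and 13.18 in caAkt hearts, against 10.75, 10.88 and 10.83 in wild-type hearts, and its part in these values was not tested.

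**Figure D5:**
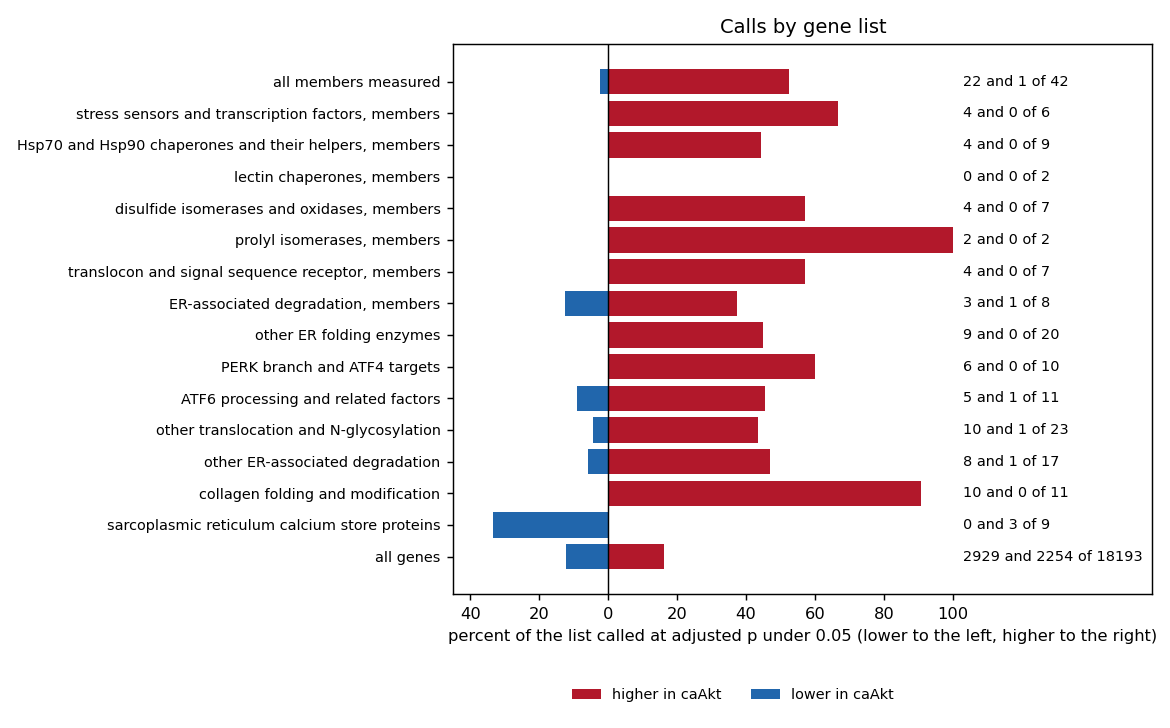
Percent of each gene list called higher (right) or lower (left) in caAkt hearts at adjusted p under 0.05, with the numbers higher and lower printed beside each bar and all 18193 genes in the bottom row. Collagen folding genes show 10 of 11 higher, the lectin chaperones none of 2, and the sarcoplasmic reticulum calcium store proteins 3 of 9 lower.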

How the data were processed

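Ventricular RNA was labelled with biotin by a one-cycle protocol and hybridised to short-oligonucleotide arrays, per the labels' protocols. The deposited values are log2 intensities made by the authors with RMA in the R package affy, per the submitters' processing notes. Versions are not given in the sources used here. The 45101 probe sets include 64 controls, 34945 with 1 gene symbol in the platform annotation, 932 with several and 9160 with none. Only those with 1 symbol were used, and the brightest probe set over the 6 arrays stood for its gene.

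The 3 caAkt and 3 wild-type arrays were compared with limma 3.58.1 (lmFit and eBayes, two-sided, 4 residual degrees of freedom) in R 4.3.3, with Benjamini-Hochberg adjustment over 18193 genes and no covariate. The script was tested on simulated data. The arrays have no counting depth, and their number limits the precision. Values of every array are given for called members with an absolute difference of at least 0.5 and for Atf6, Ern1, Eif2ak3, Xbp1 and Hspa5. Up to 3 called genes with the largest differences are named from each other list, and further genes were named after their values were seen. The members and lists were chosen with earlier results of these data known, so their counts are no independent support.

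Alternatives were other eBayes settings, other probe set rules, a level filter, renewed quantile normalization, median centring, array weights, a replicate block, an adjusted p of 0.01 and leaving out each array. Promoter windows came from RefSeq (GRCm38.p6). The samples were treated as unpaired. Deviations from the group means correlated at 0.265, 0.0308 and -0.121 for arrays with the same replicate number. Deviations within a group are tied to each other, so these correlations cannot settle whether the samples were paired.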

Additional observations from a re-analysis of the deposited data

How the results depend on the processing

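The count of members higher ranged from 16 at an adjusted p of 0.01 to 24 with array weights, and from 17 to 22 on leaving out single arrays. The count lower was 1, except 4 with renewed quantile normalization, 4 with array weights and 1 to 4 on leaving out single arrays, where the 4 came without wild-type replicate 3. The members' median fell to 0.21 as a mean of probe sets, and the cause was not tested. Over all genes 1270 were lower at an adjusted p of 0.01, a stricter threshold. With the replicate number as a block 22 members were higher and 1 lower, with 2903 and 2238 genes over the whole array, and not every array correlated best with its own number. Of the 12 members with an ER stress response element 2 were higher, and 2 to 3 on leaving out single arrays. The count was 4 with the mean of probe sets, and 5 of 16 members with 1 mismatch allowed (both chosen after seeing the data). Over the named genes and these alternatives, 544 results kept direction and side of the threshold, 34 lost the call, 20 gained one and 20 changed sign, 18 of these with neither fit called. With plain probe sets only, which left 34 members, Fkbp11 turned to -0.34, Derl1 to 0.49, Xbp1 to -0.15 and Syvn1 to 0.042. With the mean of probe sets Ern1 turned to -0.11, Syvn1 to 0.014 and Derl1 to 0.088. Renewed quantile normalization gave Ern1 -0.057 and Hyou1 -0.013, median centring gave Hspa5 0.0023 and Syvn1 0.00073, and array weights gave Ern1 -0.011. On leaving out single arrays Ern1 ranged over -0.0088 to 0.056, Xbp1 over -0.033 to 0.22, Hspa5 over -0.10 to 0.075, Hsp90b1 over -0.18 to 0.094 and Syvn1 over -0.048 to 0.014. The cause of these changes was not tested. Intensities near the top of the scale may understate differences, and those of dim genes too.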

Other observations

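The list of sarcoplasmic reticulum calcium store proteins, which also held Itpr2, Itpr3 and Stim1, had 9 measured genes. None was higher and 3 were lower, with a median difference of -0.12. Over all genes 16.1% were higher and 12.4% lower, with a median of -0.04. With only 9 genes, these counts are not read as a contrast with the ER genes. Hrc, a luminal calcium-binding protein, read 13.12, 13.19 and 13.00 in caAkt hearts, against 13.97, 13.94 and 13.89 in wild-type hearts. The inositol trisphosphate receptor Itpr2 differed by -0.57 ± 0.08 and the calcium release channel Ryr2 by -0.41 ± 0.13, both called lower.

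Outside the listed members, 17 genes on the array had an exact ER stress response element in the window. Of these 2 were higher, Adcy3 at 0.28 and Nucb1 at 0.25, and 2 were lower, Acacb at -0.75 and Pan2 at -0.27. Their median difference was -0.10. Over all genes 16.1% were higher and 12.4% lower, so these counts lie near the background.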
